A study of Mus musculus with 8 samples.

Results

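Gusb and Hprt are 2 of the 15 genes that could be named among the 60930 noncontrol probes of the array. Each was found by the RefSeq transcript to which the scanner files assign its probe. Gusb encodes β-glucuronidase, a lysosomal hydrolase that removes glucuronic acid from glycosaminoglycans. Hprt encodes hypoxanthine phosphoribosyltransferase, the purine salvage enzyme that returns hypoxanthine and guanine to the nucleotide pool, and it lies on the X chromosome. Both are housekeeping enzymes, and both are widely used as reference genes when the expression of other genes is normalized.

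The 8 samples were mouse salivary gland tissues, each hybridized to 1 array. The T group had 4 tumors, each from a different mouse, driven by the CRTC1-MAML2 fusion (T1 to T4). The NAT group had the salivary gland tissue beside 2 of these tumors (NAT1 with T1 and NAT2 with T2), and the N group had salivary glands of 2 littermates without the fusion transgene, one for each of those mice (N1, N2). The fusion cDNA was a transgene injected into FVB/J zygotes, and its line was kept by crosses to FVB/J. It followed a loxP-flanked stop cassette and was read from the ubiquitous CAG promoter once Cre had removed the cassette. Cre came from the MMTV-Cre line, which is active in salivary gland ducts but also led to fusion protein in skin. The study does not state the strain background of the MMTV-Cre mice used in the cross. The study calls the tumor-bearing mice mCre-CM(+) and the N mice mCre-CM(–), so the N mice came from the same cross and carried MMTV-Cre without the fusion transgene. The study worked mainly with its founder line 1, but the line of the arrayed mice is not named, and their ages and sexes are not given in the sources used here. The CRTC1 part of the fusion binds CREB, the transcription factor that recognizes cAMP response elements. The labels conflict for 2 samples: the source description of NAT2 places it beside tumor 1 and that of T2 calls it tissue beside tumor 2. The title and tissue label were followed for both, so the pairing of NAT2 with T2 rests on the shared number in the titles, which the study uses in the same way. The tissue labels could not be checked against marker genes, because no marker gene of a salivary cell type was among the named probes. For the same reason the other lysosomal and purine salvage genes could not be counted.

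The promoters of the genes are shown because the fusion acts through CREB and because lysosomal genes often carry the CLEAR element, whose core is CACGTG. The sequences run from 120 bases before the annotated transcription start to 10 bases after it, 5′ to 3′ on the strand of the gene, and are from RefSeq on the GRCm38.p6 build. Capitals mark the full cAMP response element TGACGTCA in Gusb and the GC box GGGCGG in Hprt.
Gusb, chr5:130003040-130003169, minus strand: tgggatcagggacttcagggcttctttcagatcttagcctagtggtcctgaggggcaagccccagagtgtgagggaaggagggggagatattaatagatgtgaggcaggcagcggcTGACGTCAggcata
Hprt, chrX:52987958-52988087, plus strand: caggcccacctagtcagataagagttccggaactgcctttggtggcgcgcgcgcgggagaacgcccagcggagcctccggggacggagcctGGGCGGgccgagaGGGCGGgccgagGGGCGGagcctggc

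The Gusb promoter held TGACGTCA once, spanning the annotated start from 4 bases before it to 4 bases after it. The Hprt promoter did not hold this 8-letter sequence or its shorter core TGACG on either strand, and instead had 3 GC boxes, the first of them 29 bases before the start. Both searches covered the 300 bases from 250 before the start to 50 after it. Among the 32851 promoters of that length in the RefSeq table, 1.79% held TGACGTCA, 20.8% held TGACG (which lies within TGACGTCA), and 35.7% held GGGCGG, which was added to the search after the sequences had been seen. CACGTG was in neither promoter and in 7.15% of all promoters. Of the 13 named genes with a promoter in the table, 1 held TGACGTCA, and that was Gusb, while 7 held the shorter TGACG (Gusb, Rpl13a, Tbp, Ppia, Tfrc, B2m, and Gk). The windows also differed in base composition, with 49.7% G or C and 6 CG dinucleotides for Gusb, and 61.0% and 22 for Hprt. These matches describe the letters in the window and were not measured as binding.

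Each gene was measured by 1 probe printed in 20 spots on every array. All 160 spots of each probe were well above the local background, and none was saturated. The signal of Gusb, as the geometric mean of the spots left after outlier flags, was 372 and 191 intensity units on N1 and N2, 919 and 497 on NAT1 and NAT2, and 7751, 7379, 8064, and 11206 on T1 to T4. The signal of Hprt was 6348 on both N1 and N2, 13748 and 9288 on NAT1 and NAT2, and 40086, 46989, 41885, and 34347 on T1 to T4. The signals of both genes were thus highest on the 4 tumor arrays before any scaling, and the tumor arrays were also brighter as a whole.

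**Figure D1:**
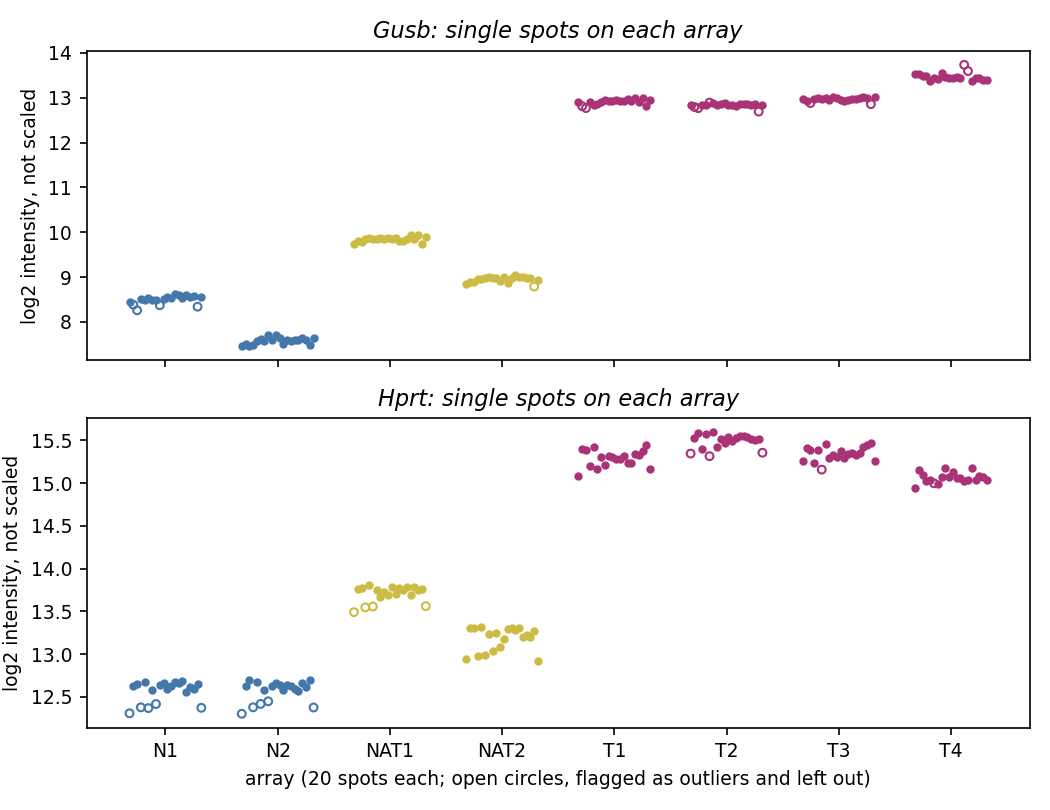
Log2 intensity, not scaled between arrays, of the 20 spots of the Gusb probe (top) and of the Hprt probe (bottom) on each of the 8 arrays. Filled points were averaged and open circles carried an outlier flag. The spots of 1 array lie close together compared with the distance from the N and NAT arrays to the T arrays, and the flagged Hprt spots lie below the rest.

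The SD of the unflagged spots within an array was between 0.02 and 0.07 log2 units for Gusb and between 0.04 and 0.14 for Hprt. These spots share 1 RNA sample and were averaged before any test. Outlier flags fell on 15 of the 160 Gusb spots and on 19 of the 160 Hprt spots. All 19 Hprt flags lay at 5 of the 20 positions of the probe, near the edges of the array, where the spots averaged 0.11 to 0.22 below the array median. No spot at these positions was flagged on T1 and NAT2. Leaving the flagged spots out raised Hprt on an array by at most 0.07, so the flags moved the comparisons of tissues little: with all spots kept, the T versus N difference of Hprt was 1.60, compared with 1.54 without them.

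For the comparisons, the log2 signal of each array was taken relative to the 75th percentile of its probes, so every scaled level below is a log2 distance from that percentile. In log2 intensity the percentile was 7.13 for N1, 6.68 for N2, 7.48 for NAT1, 7.56 for NAT2, and 7.73 to 8.42 for the tumors. Between 57.7% (N2) and 76.3% (T2) of the probes were well above background. The differences were fitted with limma to all 3 groups, and p-values were adjusted over all 47087 probes that exceeded background clearly on 2 or more arrays. A gene was called when it differed by 2-fold or more with an FDR no higher than 0.05.

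Gusb was far higher in the tumors. The scaled level of Gusb was 1.40 and 0.90 on N1 and N2, 2.37 and 1.39 on NAT1 and NAT2, and 4.98, 4.42, 4.93, and 5.72 on T1 to T4. Every tumor array lay above every N and NAT array, with a gap of 2.06 between T2, the lowest tumor, and NAT1, the highest of the others. The N and NAT arrays overlapped, since NAT2 lay just below N1. The group means ± SD were 1.15 ± 0.36 in N (n = 2), 1.88 ± 0.69 in NAT (n = 2), and 5.01 ± 0.53 in T (n = 4), so that the order was N, NAT, T, with overlapping arrays in N and NAT and a clear step to T.

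Relative to normal glands, Gusb rose 14.5-fold in the tumors, a log2 difference of 3.86 (SE, 0.44; 95% confidence interval, 2.86 to 4.86; limma FDR, 0.00033). Relative to the adjacent tissue it rose 8.77-fold, a log2 difference of 3.13 (SE, 0.44; interval, 2.13 to 4.14; limma FDR, 0.00138). For background, 27.5% of the tested probes were called higher in T versus N and 20.5% in T versus NAT. These shares depended on the processing. Across the alternatives they were between 9.21% (the 13 other named probes as the scale) and 54.0% (no scaling) in T versus N, with 15.1% under normexp background correction. In T versus NAT they were between 7.61% and 33.0% under the same scales, and 8.49% without NAT2. Gusb lay far up in that distribution, with 3.30% of the probes showing a larger increase in T versus N and 3.55% in T versus NAT. In the pairs given by the titles, T1 exceeded NAT1 by 2.62 and T2 exceeded NAT2 by 3.03.

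Hprt was also higher in the tumors, by a smaller amount. The scaled level of Hprt was 5.50 and 5.96 on N1 and N2, 6.27 and 5.62 on NAT1 and NAT2, and 7.35, 7.10, 7.30, and 7.34 on T1 to T4. All 4 tumor arrays were above the N and NAT arrays, and the gap between T2 and NAT1 was 0.83. NAT2 lay between the N arrays, so N and NAT overlapped again. The group means ± SD were 5.73 ± 0.32 in N (n = 2), 5.94 ± 0.46 in NAT (n = 2), and 7.27 ± 0.12 in T (n = 4), in the same order as for Gusb. The range of the scaled levels over the tumors was 0.26 for Hprt and 1.29 for Gusb, but before scaling the ranges were 0.45 and 0.60.

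In T versus N, Hprt rose 2.92-fold, a log2 difference of 1.54 (SE, 0.30; 95% confidence interval, 0.85 to 2.24; limma FDR, 0.00368). In T versus NAT it rose 2.51-fold, a log2 difference of 1.33 (SE, 0.30; interval, 0.64 to 2.02; limma FDR, 0.0107). Increases larger than that of Hprt were found for 22.9% of the tested probes in T versus N and for 21.1% in T versus NAT, close to the shares of all probes that were called higher. T1 exceeded NAT1 by 1.08 and T2 exceeded NAT2 by 1.48. As a fixed block, the replicate number joins each mouse with its littermate. T3 and T4 then stand alone in their blocks, so only T1 and T2 inform the difference. With this block, the T versus NAT difference of Hprt was 1.28 and was no longer called (limma FDR, 0.0904). The call was also lost without NAT2, at 1.00. With the 13 other named probes as the scale, Hprt was called in neither comparison, at 0.20 in T versus N and 0.36 in T versus NAT.

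**Figure D2:**
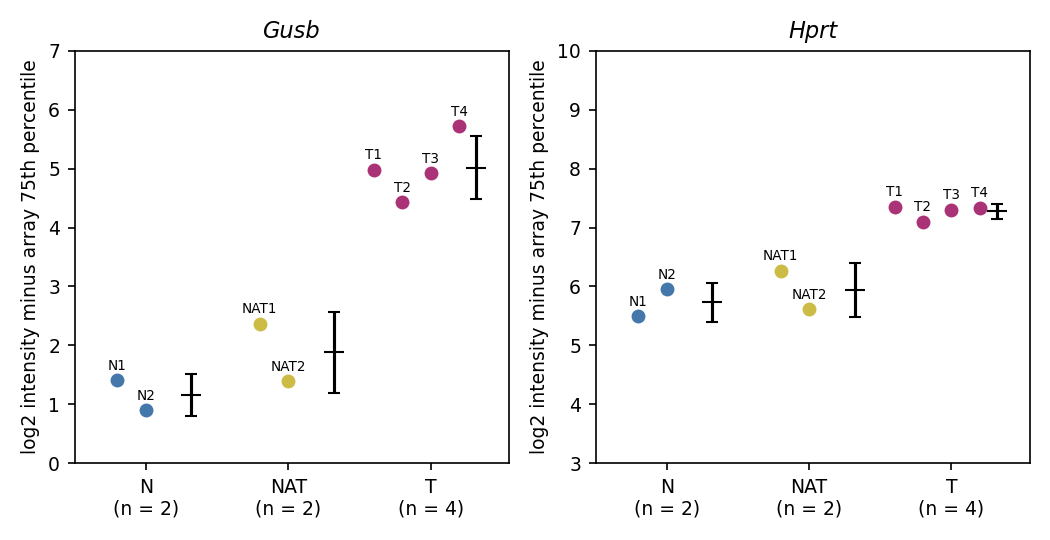
Scaled level (log2 intensity minus the 75th percentile of the array) of Gusb (left) and Hprt (right) on the 2 N, 2 NAT, and 4 T arrays. The vertical axes cover different levels but the same length, each point is an array, and the black bars give the group mean and SD. All T points lie above all N and NAT points for both genes, and the distance is larger for Gusb.

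A complete separation of the 4 tumor arrays from the other 4 was common on these arrays, with 28.2% of the tested probes having all T arrays above all N and NAT arrays. With the N and NAT arrays as 1 set, the T arrays were higher by 3.50 for Gusb and by 1.44 for Hprt, each with p = 0.0286 in a two-sided exact permutation test of 4 arrays against 4. That p is the smallest this grouping allows. It became 0.0571 after Benjamini-Hochberg adjustment over the 6 exact tests made on these genes. The arrays are not fully independent here, since the NAT samples came from mice that also gave a T sample.

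Between NAT and N, neither gene was called. The NAT versus N log2 difference was 0.73 for Gusb (SE, 0.50; 95% confidence interval, -0.43 to 1.89; limma FDR, 0.878). For Hprt it was 0.22 (SE, 0.35; interval, -0.58 to 1.02; limma FDR, 0.913). The intervals include no difference and also an increase of more than 2-fold for each gene, so the 2 arrays per group do not show that the levels were alike. NAT1 was higher than NAT2 for both genes, by more than the distance between the N arrays. Before scaling, both NAT arrays were above both N arrays for each gene, so the overlap of N and NAT holds for the scaled levels only. The unscaled NAT versus N difference was 1.34 for Gusb (limma FDR, 0.328) and 0.83 for Hprt (limma FDR, 0.333), and neither was called. Of all tested probes, limma called 0% in NAT versus N, or 0 probes, and 1992 (4.23%) had an unadjusted p under 0.05. Without NAT2, 161 probes were called, 159 of them higher in NAT. With the methods' t-test, 310 probes passed the same fold change at an unadjusted threshold and 0 after adjustment. On the scaled levels, both NAT arrays were above both N arrays for 14.4% of the probes, and neither Gusb nor Hprt was among them.

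The arrays measured whole tissue, so a change in the share of a cell type and a change in RNA per cell cannot be told apart. The control probes of the array for the 5′ and 3′ ends of 2 transcripts moved with the groups. For GAPDH, the log2 signal at the 5′ end minus that at the 3′ end was -3.07 and -3.58 on N1 and N2, -2.38 and -2.89 on NAT1 and NAT2, and -0.80 to -0.34 in the tumors. For PGK1 it was -7.70 on N1, -8.48 on N2, -7.13 on NAT1, -7.56 on NAT2, and -5.78 to -4.46 in the tumors. The 5′ ends were thus relatively dimmer in N and NAT than in T for both transcripts. Where the Gusb and Hprt probes lie along their transcripts is not given in the sources used here, and the part of this difference in the results was not tested. The rows of the slide each held several groups. In the first row, T1 exceeded the mean of N1, N2, and NAT1 by 3.43 for Gusb and by 1.45 for Hprt. In the other row, the mean of T2, T3, and T4 exceeded NAT2 by 3.63 for Gusb and by 1.63 for Hprt, so the differences were of similar size in both rows.

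The next question was whether the genes changed by different amounts. It was asked on the log2 signal of Gusb minus that of Hprt on the same array, in which the scaling cancels. The value itself depends on how brightly each probe reports its transcript, so only its change between arrays can be read. The Gusb minus Hprt value was -4.09 and -5.05 on N1 and N2, -3.90 and -4.22 on NAT1 and NAT2, and -2.37, -2.67, -2.38, and -1.62 on T1 to T4. All tumor arrays were above all others, T4 was the highest of them, and the N and NAT arrays overlapped.

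The increase was larger for Gusb than for Hprt in both tumor comparisons, but the exact test cannot reach 0.05 in either of them with groups of this size. The difference between the changes was 2.32 in T versus N, or 4.98-fold, and 1.81 in T versus NAT, each with p = 0.133 in a two-sided exact permutation test, the smallest p that 4 arrays against 2 allow. With N and NAT together, the difference was 2.06 (exact permutation p = 0.0286, the smallest possible; adjusted over the 6 exact tests, 0.0571). In NAT versus N it was 0.51 (exact permutation p = 0.667, where 0.333 is the smallest possible). The scaling cancels in these differences, but the background correction does not. With normexp they were 2.02 in T versus N, 1.68 in T versus NAT, 1.85 with N and NAT together, and 0.34 in NAT versus N. Within the NAT and T pairs given by the titles, Gusb exceeded Hprt in its change by 1.53 from NAT1 to T1 and by 1.55 from NAT2 to T2. The source description of NAT2 names tumor 1 instead, so the closeness of these values depends on a pairing that the labels leave in conflict.

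**Figure D3:**
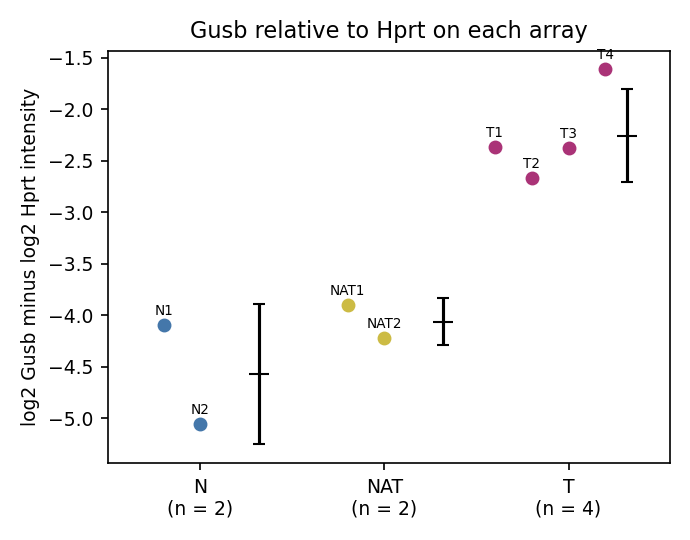
Log2 intensity of Gusb minus log2 intensity of Hprt on each of the 2 N, 2 NAT, and 4 T arrays, with the group mean and SD in black. The T arrays lie between -2.67 and -1.62 and the N and NAT arrays between -5.05 and -3.90.

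Because both genes are used as references, their changes were set against those of the other 13 named probes, many of them housekeeping genes. Of these 13, limma called 7 higher and 0 lower in T versus N, where 27.5% of all tested probes were called higher. In T versus NAT it called 5 higher and 0 lower, where the share was 20.5%. Of the 47087 tested probes, 9903 were called lower in T versus N and 7496 in T versus NAT. In T versus N the median log2 difference of the 13 was 1.26, from -0.96 for Nono, an RNA-binding protein of nuclear paraspeckles, to 4.58 for Rpl13a, a ribosomal protein. Gusb rose more than 12 of the 13 in T versus N, all but Rpl13a. For 11 of the 13 the T arrays were all above the N and NAT arrays after that probe was subtracted, and the exceptions were Rpl13a and Hsp90ab1, a cytosolic chaperone. Relative to Gapdh, the glycolytic enzyme with which the study normalized its qPCR, Gusb was higher by 2.60 in T versus N and by 2.09 in T versus NAT.

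Hprt lay near the middle of the same list. It rose more than 8 of the 13 in T versus N and less than 5. After subtraction of the other probe, all T arrays were higher for 5 (Ppia, Tfrc, B2m, Gk, and Nono), all were lower for 2 (Rpl13a and Hsp90ab1), and the groups overlapped for 6. Gapdh was among the overlapping probes, and relative to it Hprt differed by only 0.29 in T versus N and 0.28 in T versus NAT. Gapdh itself rose by 1.26 in T versus N on the log2 scale (limma FDR, 0.018).

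**Figure D4:**
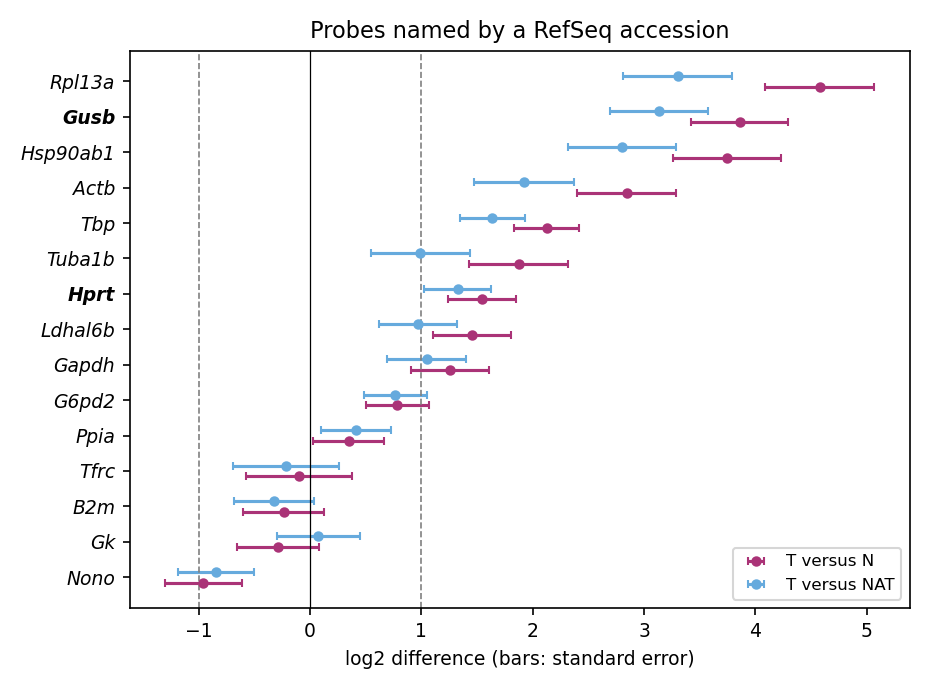
Log2 difference, with its standard error, of the 15 named probes in T versus N and in T versus NAT, ordered by T versus N. Dashed lines mark a 2-fold change in either direction. Gusb is second in the order behind Rpl13a, and Hprt is near the middle, with a larger change than Gapdh by 0.29 in T versus N.

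The choice of scale changed the call of Hprt and not that of Gusb. When the mean of the 13 other named probes was subtracted from each array in place of the percentile, the T versus N difference was 2.52 for Gusb (limma FDR, 0.000654) and 0.20 for Hprt (limma FDR, 0.605). In T versus NAT the corresponding values were 2.17 for Gusb and 0.36 for Hprt, and only Gusb was called. Quantile normalization left Hprt called in T versus N, at 1.04, but not in T versus NAT, at 0.96. Without any scaling, the T versus N differences were 4.99 for Gusb and 2.68 for Hprt.

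The median probe moved with the scale. Its T versus N difference was 0.29 with the 75th percentile, -1.05 with the 13 named probes, and 1.42 without scaling. These 3 scales each subtract 1 constant from all probes of an array, so by construction the distance from the median was the same under all of them, 3.57 for Gusb and 1.26 for Hprt. With quantile normalization the distances from the median were 3.53 and 0.93, and with normexp background correction they were 4.25 and 2.22. The share of called probes that were higher in T versus N was 56.7% with the 75th percentile, 16.6% with the 13 named probes, and 86.2% without scaling, and in T versus NAT it was 56.3%, 18.4%, and 77.9%.

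**Figure D5:**
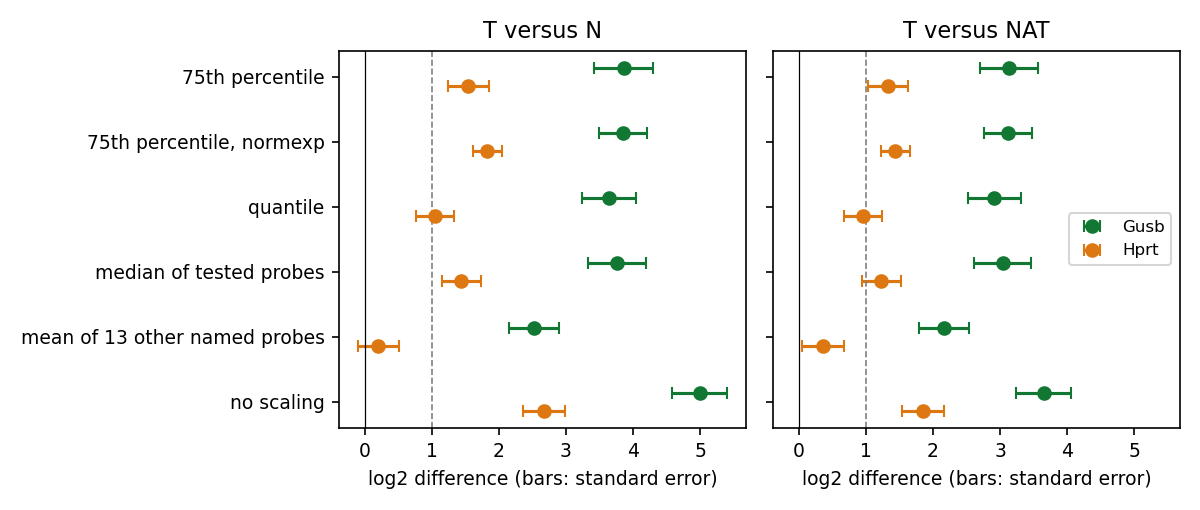
Log2 difference of Gusb and Hprt in T versus N (left) and T versus NAT (right) under 6 ways of scaling or background correction, with the standard error from limma. The dashed line marks a 2-fold increase. Every Gusb value lies beyond it, whereas Hprt lies near or below it under quantile normalization and when the mean of the 13 other named probes is subtracted.

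The named probes whose scaled levels followed Gusb most closely over the 8 arrays, apart from Hprt, were Rpl13a (Pearson r = 0.982), Hsp90ab1 (r = 0.964), and Gapdh (r = 0.961), and the least alike was Nono (r = -0.876). For Hprt, apart from Gusb, they were Rpl13a (r = 0.983), Actb, the cytoplasmic actin (r = 0.963), and Tbp, the TATA-binding protein (r = 0.961), and again Nono was the least alike (r = -0.815). Gusb and Hprt themselves had r = 0.964. These values describe 8 arrays that share 1 slide and fall into 2 separate sets, the tumors and the rest, so they mostly restate that the tumors differed.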

How the data were processed

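RNA depleted of rRNA was amplified with random primers, labeled with Cy3, and hybridized to 8 one-color Arraystar mouse arrays (1 slide, 1 scan). The authors deposited spot intensity on a linear scale from Agilent Feature Extraction 11.0.1.1 (submitters' processing notes), background subtracted by that software and without normalization across arrays. A log2 table of 42830 probes was deposited too, normalized by a method not given in the sources used here. It holds 0 of the 15 named probes, so it gave alternative counts only. The members, lists, and tests were chosen with earlier results of these data known.

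Control and outlier-flagged spots were left out, log2 signals of a probe's spots were averaged, 124 probes with no unflagged spot on some array were dropped, and each array's 75th percentile was subtracted. A probe was tested if well above background on 2 or more arrays (47087 probes). All 3 groups entered 1 limma fit (version 3.58.1 in R 4.3.3; lmFit, eBayes), adjusted by Benjamini-Hochberg. Exact permutation tests used scipy 1.17.1 in Python 3.11.15, and the steps were tested on simulated data. The named genes were the 2 members, Gapdh, and the probes most and least correlated with each member; others appear where a count turned on them. Names came from RefSeq accessions, and the 15 named probes are those whose accession matched a symbol.

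By title, T1 and NAT1 share a mouse, and so do T2 and NAT2, though the source description of NAT2 names tumor 1. The labels give N1 and N2 as littermates of the mice with tumors 1 and 2. Deviations from the group means correlated at -0.0949 (NAT1, T1), -0.249 (NAT2, T2), 0.149 (N1, NAT1; also N2, NAT2), 0.0205 (N1, T1), and 0.0785 (N2, T2). With 2 arrays in N and 2 in NAT, the deviations within each group mirror each other. The value of 0.149 is thus the same for both pairs by construction. Exchanging NAT1 and NAT2 only reverses the sign, so NAT2 with T1 and NAT1 with T2 correlated positively. The values were not used to choose a pairing.

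Alternatives were normexp on the median spot signals (offset 50), other scalings, filters, and variance models, kept flags, only the arrays compared, the replicate number as a block, the slide row, the methods' t-test, an FDR of 0.01, and each array left out. The number of arrays limits the precision.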

Additional observations from a re-analysis of the deposited data

How the results depend on the processing

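In T versus N and T versus NAT, Gusb was called under all 24 alternatives of each comparison (2.52 to 4.99 and 2.17 to 3.65), and Hprt was higher in T under all of them but lost its call under 1 and 6. In T versus N this was subtraction of the 13 other named probes (0.20). In T versus NAT it was the same scaling (0.36), quantile normalization (0.96), an FDR of 0.01 (1.33, FDR 0.0107), and leaving out NAT2. It was also the replicate block (1.28, FDR 0.0904) and that block with T1 and T2 crossed (1.28, FDR 0.0914). Only T1 and T2 inform the difference in either block, so it is the same in both by construction. The crossed block was added after seeing the data because the source description of NAT2 names tumor 1. It pairs NAT2 with T1 but also N2 with T1, so it breaks the littermate match of the N arrays. Quantile normalization failed on the fold change and the 13-probe scaling on both criteria; other causes were not tested. The block changed no other call of Gusb or Hprt, and with it 18128 probes were called in T versus N and 11482 in T versus NAT, compared with 18721 and 12040 when crossed. Without 1 array at a time, Gusb ranged from 3.61 to 4.11 in T versus N and from 2.65 to 3.62 in T versus NAT, and Hprt from 1.32 to 1.77 and from 1.00 to 1.65.

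In NAT versus N, Hprt turned to -0.16 with the 13 named probes, and ranged from -0.11 to 0.54 with 1 array left out, below 0 without N1 or NAT1; Gusb ranged from 0.24 to 1.21. Without scaling they were 1.34 for Gusb and 0.83 for Hprt. Neither gene was called in any of these. With 1 array left out, the comparison of T with N and NAT together gave 3.26 to 3.78 for Gusb, 1.32 to 1.58 for Hprt, and 1.82 to 2.20 for Gusb minus Hprt, where the exact test can reach only p = 0.0571. With the 13 named probes subtracted, Hprt gave 0.28 (exact permutation p = 0.143). Gusb minus Hprt in T versus N ranged from 1.84 to 2.80, in T versus NAT from 1.59 to 1.97, and in NAT versus N from 0.03 to 0.99.

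Counts of probes called were 22851 in T versus N, 14700 with normexp, and 16757 to 22936 with 1 array left out. In T versus NAT they were 17156, and 10771 with normexp, 9582 with the methods' t-test, 9207 at an FDR of 0.01, and 7838 (without NAT2) to 17424 with 1 array left out. In NAT versus N they were 0, and 0 to 161 with 1 array left out, with 161 without NAT2 and 1 each without N2 or NAT1. The deposited log2 table holds neither gene. Where leaving out an array left a group with 1 array, that array was assumed to vary like the others.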
